A study of Mus musculus with 6 samples.

Results

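The genes described here encode the core of the Wnt pathway: Wnt ligands, the enzymes and carriers that release them, Frizzled and Lrp receptors, secreted antagonists and R-spondins, feedback inhibitors, Dishevelled, Axin and beta-catenin, and the TCF/LEF transcription factors. They were picked by gene symbol, by a rule written with earlier results of these data known, and 52 of the 22246 genes in the expression table matched. In the canonical pathway a secreted Wnt binds a Frizzled receptor together with Lrp5 or Lrp6, Dishevelled is recruited, and the complex that marks beta-catenin for destruction is held back, so that beta-catenin enters the nucleus and activates genes with TCF/LEF proteins. Secreted frizzled-related proteins and Dickkopf proteins block the ligand or the co-receptor outside the cell, R-spondins protect Frizzled from the ubiquitin ligases Znrf3 and Rnf43, and Axin2 is induced by the pathway and feeds back on it. In heart development the pathway is known to act at several stages, with early induction of mesoderm and later restraint of cardiomyocyte differentiation.

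The series compared 3 RNA sequencing libraries labelled Smyd4 shRNA with 3 libraries labelled control shRNA, all from HL-1 cells of the mouse strain C57BL/6, a line established from an atrial tumour of transgenic mice that expressed the SV40 large T antigen in the atria. A short hairpin RNA (shRNA) is processed into a small interfering RNA that directs degradation of a matching mRNA, and Smyd4 encodes a SET and MYND domain protein of the lysine methyltransferase family. In the sample titles these groups read HL-1 shRNA and HL-1 CTR. The design text describes the comparison as one between cells with lowered Smyd4 and control cells. Whether each group is 1 clone, a pool or separate cultures is not given in the labels, so the p-values reflect variation among these 6 libraries alone, and that variation may be technical. The libraries held between 20755856 and 26387606 reads assigned to genes, and 11201 to 11265 genes reached 1 FPKM in the libraries labelled Smyd4 shRNA, against 11400 to 11409 in the control libraries. FPKM counts fragments per kilobase of a gene, adjusted here for sequencing depth.

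Smyd4 itself (chromosome 11, 75348433 to 75405705, GRCm38) stood at 12.6, 12.3 and 11.9 FPKM in the libraries labelled Smyd4 shRNA, against 12.5, 12.8 and 13.5 FPKM in the control libraries. The groups overlapped, with a log2 change of -0.07 (95% confidence interval -0.16 to 0.02; limma, Benjamini-Hochberg adjusted p = 0.173). Exact permutation of its 6 FPKM values, two-sided, gave p = 0.2, where 0.1 is the smallest p that 3 against 3 libraries allow. The mRNA of the target therefore did not show the lowering that the design text describes, and the protein was not measured here. Every direction given for a Wnt gene is a direction relative to the label only.

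Defining markers of atrial cardiomyocytes were largely missing. Of 13 atrial cardiomyocyte markers listed, Nppa and Sln had no entry in the expression table used here. Of the other 11, Myh6, Gja5, Actc1, Ryr2 and Tbx5 were under 0.1 FPKM in all 6 libraries. The cardiac factors Nkx2-5 and Gata4 and the sarcomere gene Tnnt2 were measured and were higher in the labelled libraries. The summed level of the 11 markers was 28.2 to 29.5 FPKM in the libraries labelled Smyd4 shRNA and 18.8 to 19.6 FPKM in the control libraries. Nearly all of that sum was Tnnt2 (means 11.7 and 7.11 FPKM), Nkx2-5 (7.68 and 3.57 FPKM) and Gata4 (8.88 and 8.09 FPKM), in the same order. Myl4, Myl7 and Tnni3 were at 0.222 FPKM or less in every library. Other lists moved more: 6 skeletal myoblast genes summed to 20.0 to 21.7 FPKM in the labelled libraries and 87.6 to 90.4 FPKM in the control libraries, with 4 of 4 tested lower. In the labelled and the control libraries, Chrna1 averaged 9.59 and 49.9 FPKM and Myod1 5.31 and 18.8 FPKM. Chrnd averaged 1.21 and 11.6 FPKM, and Myf5 4.83 and 8.68 FPKM, in the same order. The 5 epithelial genes summed to 23.2 to 25.2 FPKM in the labelled libraries and 6.63 to 7.73 FPKM in the control libraries, nearly all of it Krt14 at 22.8 to 24.9 FPKM in the labelled libraries and 6.59 to 7.63 FPKM in the control libraries. The defining epithelial markers Epcam and Cdh1 were under 0.1 FPKM in all libraries. Fibroblast genes (8) summed to 270 to 282 FPKM in the labelled libraries and 239 to 246 FPKM in the control libraries, with 2 of 5 tested higher (Col1a1 and Col1a2) and 2 lower (Dcn and Pdgfra). Dcn averaged 1.72 FPKM in the labelled libraries and 26.3 FPKM in the control libraries. The fibroblast markers Lum and Thy1 were under 0.1 FPKM in all libraries. Smooth muscle genes (5) summed to 298 to 308 FPKM in the labelled libraries and 437 to 453 FPKM in the control libraries, with 3 of 3 tested lower. Most of that sum was Acta2, at a mean of 196 FPKM in the labelled and 292 FPKM in the control libraries, and Des, at 102 and 137 FPKM. The smooth muscle marker Myh11 was under 0.1 FPKM in all libraries. Of all 11325 genes tested with limma, 25.1% were higher and 23.3% lower. In bulk RNA, fewer cells of a type and less RNA per cell cannot be told apart, and the part of these shifts in the Wnt results was not tested.

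The promoters of the members were compared first for the letters of the TCF/LEF recognition site, since TCF proteins and their target Axin2 are themselves members. RefSeq windows of 300 bases, 250 before and 50 after an annotated start site, existed for 35 members, 44 windows in all on GRCm38.p6. The motifs CTTTGAA and CTTTGAT were searched on both strands, where they read TTCAAAG and ATCAAAG. They occurred in 2 of the 44 member windows (4.55%), against 2842 of 32851 windows of all genes (8.65%). The member windows were rich in CpG, with a median of 26 CpG and a G+C content of 67.3%, against 7 CpG and 52.7% over all windows. The matches lay 51 bases before a start site of Wnt11 and 71 bases before one of the start sites of Wnt5b. A match is a run of letters and no evidence of binding, and its absence concerns this window alone. Printed next are the 250 bases before the start site for Wnt4 and Fzd4, which were among the members with the largest rises, for Axin2, the feedback gene, and for Wnt5b, with its match in capitals. Wnt4 lies at chr4:137277385-137277634 and Fzd4 at chr7:89404116-89404365, both on the plus strand. Axin2 lies at chr11:108920099-108920348 on the plus strand and Wnt5b at chr6:119449387-119449636 on the minus strand.
Wnt4: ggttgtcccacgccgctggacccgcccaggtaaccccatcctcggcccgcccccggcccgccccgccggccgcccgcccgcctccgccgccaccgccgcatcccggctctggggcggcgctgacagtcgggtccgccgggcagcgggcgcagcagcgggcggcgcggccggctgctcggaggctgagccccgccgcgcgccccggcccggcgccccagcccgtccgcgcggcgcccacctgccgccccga
Fzd4: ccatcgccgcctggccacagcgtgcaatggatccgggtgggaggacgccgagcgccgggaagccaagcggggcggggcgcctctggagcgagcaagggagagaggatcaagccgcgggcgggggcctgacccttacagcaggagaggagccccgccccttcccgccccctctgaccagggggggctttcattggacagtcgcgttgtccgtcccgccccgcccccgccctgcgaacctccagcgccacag
Axin2: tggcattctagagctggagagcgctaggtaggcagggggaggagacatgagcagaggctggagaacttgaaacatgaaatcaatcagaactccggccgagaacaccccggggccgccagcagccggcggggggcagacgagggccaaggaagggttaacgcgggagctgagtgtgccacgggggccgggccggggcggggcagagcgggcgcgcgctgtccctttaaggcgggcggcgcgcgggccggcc
Wnt5b: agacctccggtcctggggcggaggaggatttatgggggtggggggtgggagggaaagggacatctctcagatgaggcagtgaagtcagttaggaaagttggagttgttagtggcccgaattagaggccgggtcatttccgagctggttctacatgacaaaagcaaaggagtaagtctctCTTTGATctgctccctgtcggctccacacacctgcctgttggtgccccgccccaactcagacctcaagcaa

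Across the pathway, Wnt genes moved in both directions. In the libraries labelled Smyd4 shRNA the ligand Wnt4, the receptors Fzd2, Fzd4 and Fzd6 and the transcription factors Tcf7, Tcf7l1 and Tcf7l2 were higher, and the secreted antagonist Sfrp4, the ligands Wnt7b and Wnt10a and the co-receptor Lrp6 were lower. Beta-catenin mRNA itself differed by a log2 change of 0.06 that did not pass the test. Of the 52 members, 27 reached a mean of 1 FPKM over the 6 libraries and were tested with limma on log2(FPKM + 0.5), and 10 were higher, 8 were lower and 9 did not pass at a Benjamini-Hochberg adjusted p of 0.05. These 18 called members stand against a background in which 48.3% of the 11325 tested genes were called, 25.1% higher and 23.3% lower. On recovered whole reads, edgeR tested 40 members and called 11 higher (27.5%) and 18 lower (45.0%), where it called 49.5% of all 13775 genes it tested, 23.3% higher and 26.3% lower. A gene of few reads enters that test through the group in which it is high, so this count gives no support for a direction of the set. The 18 members called by limma were all called by edgeR as well.

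Among the 27 members tested with limma, a log2 change of at least 0.5 was reached by 5 called members (18.5%), Sfrp4, Fzd6, Fzd4, Wnt4 and Fzd2, while 8.62% of all genes tested with limma were called with a change of that size. The 11 members under the filter that edgeR called all had a fitted change larger than that. With few reads a call needs a large change, and these genes could enter through the group in which they were high. The share over all genes under the filter was not taken, so this count says nothing about the members. The median log2 change of the 27 members was 0.04, against 0.02 over all tested genes, and the median absolute change was 0.17, against 0.13. In 22 of the 27 members the libraries of the groups did not overlap, beside 57.8% of all tested genes.

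**Figure D1:**
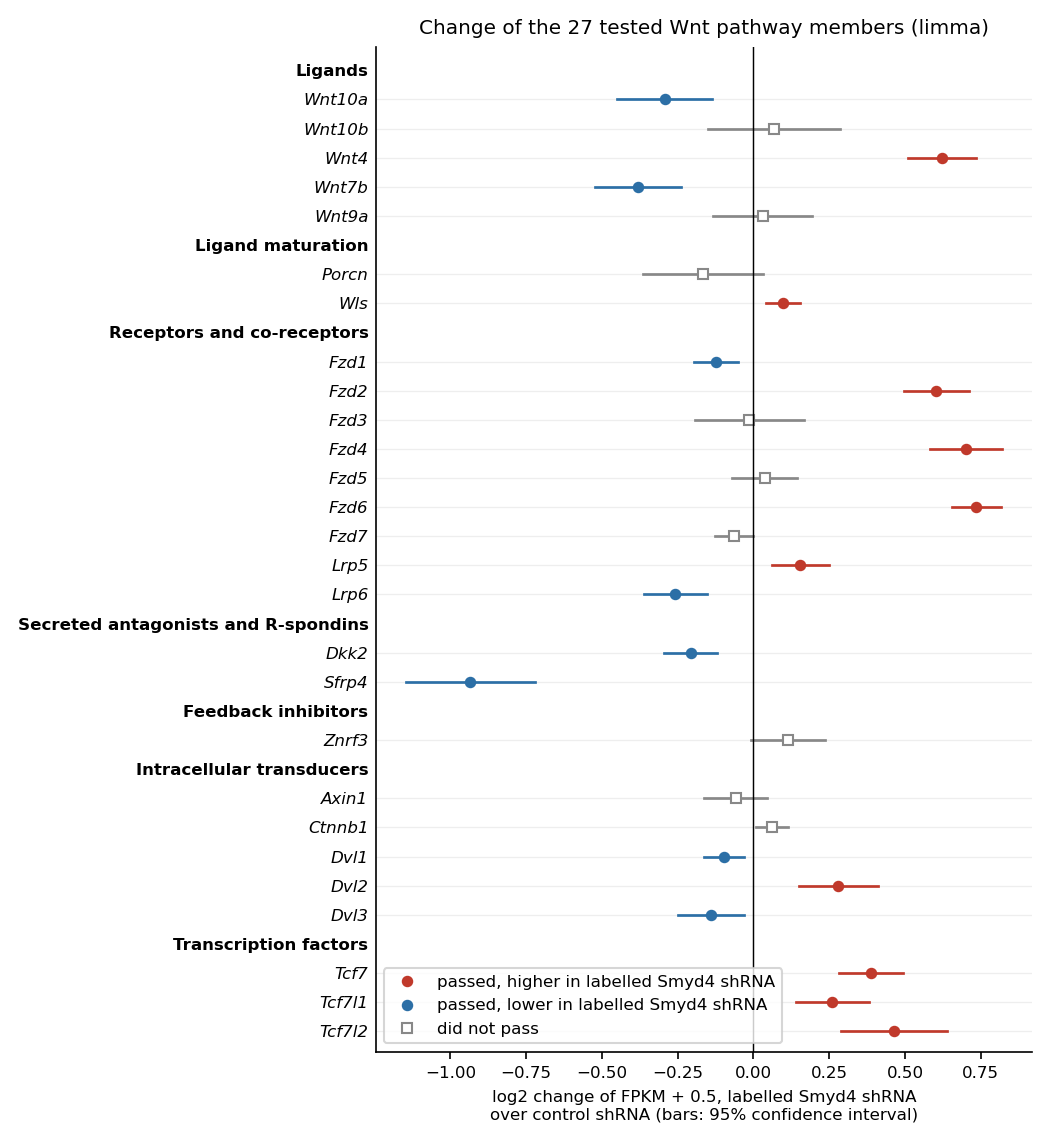
The log2 change of FPKM + 0.5 in the libraries labelled Smyd4 shRNA over the control libraries (x axis) for the 27 tested members, grouped by role, with 95% confidence intervals (n = 3 libraries per group). Filled circles passed the limma test and open squares did not; Sfrp4 lies farthest to the left at -0.93 and Fzd6 farthest to the right at 0.74.

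Among the ligands, Wnt4 was the most abundant and the one that rose. Wnt4 (chromosome 4, 137277489 to 137299726), known for its part in kidney and ovary development, measured 16.1, 15.1 and 14.1 FPKM in the libraries labelled Smyd4 shRNA, against 9.73, 9.73 and 9.40 FPKM in the control libraries. Every labelled library lay above every control library, and the means of 15.1 ± 0.995 and 9.62 ± 0.188 FPKM (SD, n = 3 each) were 1.57-fold apart (log2 change 0.62, SE 0.05; limma, adjusted p = 2.49e-05). Wnt10a (chromosome 1, 74791516 to 74804179), a ligand of tooth and hair follicle development, measured 6.31, 5.27 and 5.26 FPKM in the labelled libraries, against 7.06, 7.06 and 6.79 FPKM in the control libraries. It fell without overlap of the groups, by 0.29 on the log2 scale (SE 0.07; limma, adjusted p = 0.00823). Wnt7b, a ligand of lung and kidney development, averaged 3.85 ± 0.125 FPKM in the labelled libraries and 5.17 ± 0.414 FPKM in the control libraries and also fell (log2 change -0.38; limma, adjusted p = 0.00141). Wnt9a averaged 2.92 ± 0.219 FPKM in the labelled libraries and 2.85 ± 0.182 FPKM in the control libraries, with a 95% interval of the log2 change from -0.13 to 0.19. Wnt10b averaged 2.09 ± 0.310 FPKM in the labelled libraries and 1.96 ± 0.0477 FPKM in the control libraries, with an interval from -0.15 to 0.28. Neither passed, and their groups overlapped.

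The summed ligand level changed less than its make-up. The 13 Wnt mRNAs together came to 28.2 to 31.5 FPKM in the libraries labelled Smyd4 shRNA and 27.0 to 27.8 FPKM in the control libraries. Wnt4 made up 50.4% of that sum on average in the labelled libraries and 35.0% in the control libraries. Wnt10a made up 18.7% in the labelled libraries and 25.4% in the control libraries, and Wnt7b made up 12.9% in the labelled libraries and 18.8% in the control libraries. FPKM is scaled per gene length, so these shares compare levels between genes, and they say nothing of protein.

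The other 8 ligands stayed under the filter and rest on few reads, which were recovered from the FPKM values as whole numbers and tested with edgeR where they allowed. Wnt5a, a ligand of the branch that does not act through beta-catenin, had 6, 5 and 1 reads in the libraries labelled Smyd4 shRNA, against 13, 18 and 15 in the control libraries (edgeR quasi-likelihood test, adjusted p = 0.00101). Wnt6 had 6, 11 and 3 reads in the labelled libraries, against 14, 16 and 21 in the control libraries (edgeR, adjusted p = 0.00735). Both were lower in every labelled library than in any control library. Wnt5a and Wnt6 could enter the test through the control libraries, in which they were high, so their p-values give no support for a direction. Wnt2b had 14, 24 and 13 reads in the labelled libraries and 16, 15 and 16 in the control libraries, and its groups overlapped (edgeR, adjusted p = 0.776). Wnt1, Wnt2, Wnt5b, Wnt11 and Wnt16 had 0 to 13 reads per library and entered neither test. Wnt5b had 4, 1 and 0 reads in the labelled libraries, against 8, 13 and 7 in the control libraries. Wnt11 had 1, 4 and 3 reads against 8, 12 and 8, and Wnt16 had 0, 1 and 0 reads against 5, 3 and 2, in the same order. The groups of Wnt1 and of Wnt2 overlapped.

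The ligand carrier Wls moved little. Wls, which carries lipid-bearing Wnt proteins to the cell surface, measured 46.2, 47.1 and 47.4 FPKM in the libraries labelled Smyd4 shRNA, against 43.8, 44.2 and 43.5 FPKM in the control libraries. The groups did not overlap, and the rise was 0.10 on the log2 scale (SE 0.02; limma, adjusted p = 0.0105). Porcn, the acyltransferase that attaches the lipid, measured 2.09, 2.23 and 2.11 FPKM in the labelled libraries, against 2.28, 2.86 and 2.29 FPKM in the control libraries. Its libraries did not overlap either, but the log2 change of -0.17 did not pass (interval -0.36 to 0.03; limma, adjusted p = 0.149).

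**Figure D2:**
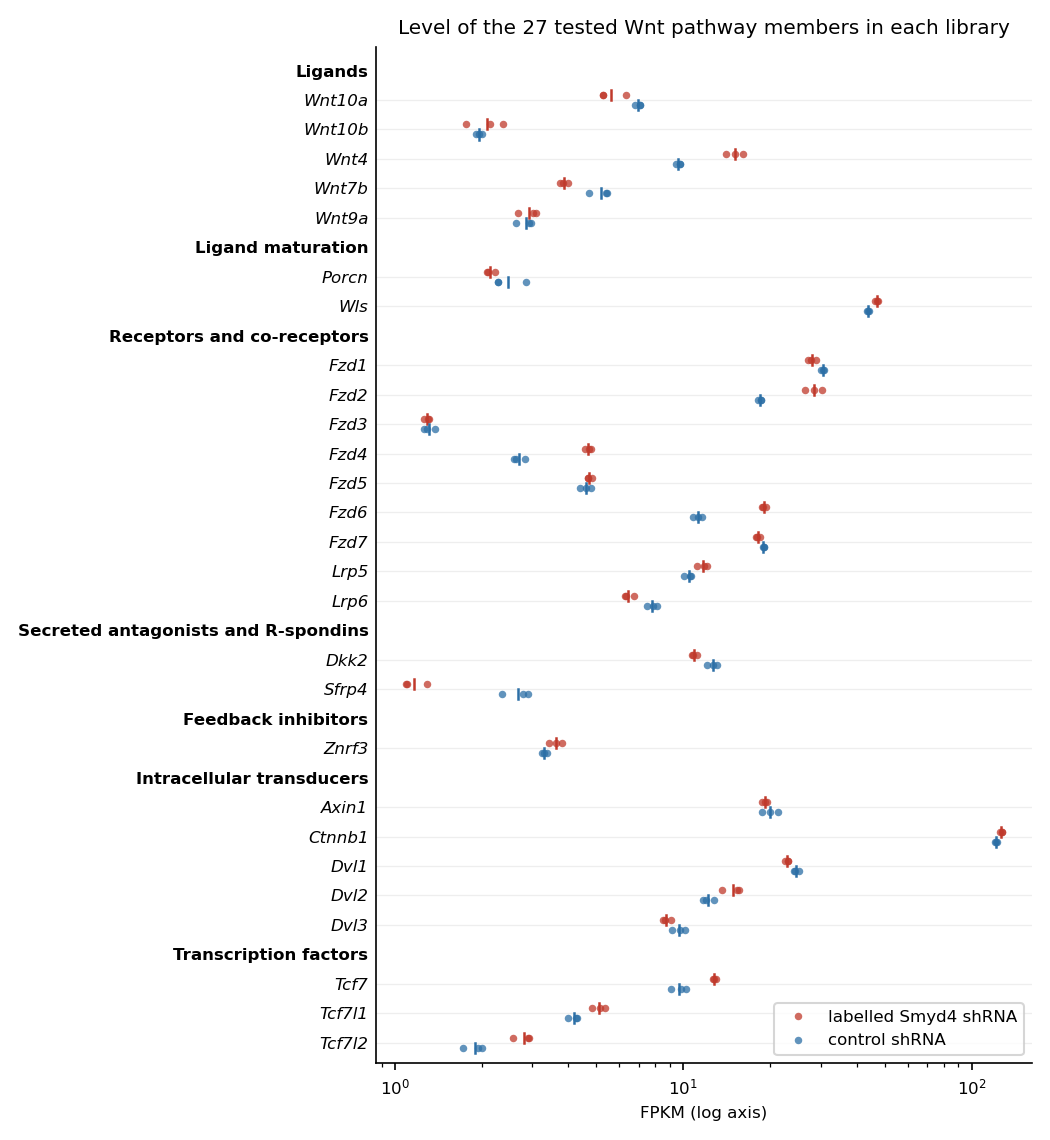
FPKM of the 27 tested members in each library (points, log axis) with the mean of each group (vertical lines), 3 libraries labelled Smyd4 shRNA in red above 3 control libraries in blue. Ctnnb1 is the most abundant at 120.4 to 128 FPKM, and the red and blue points of Fzd4, Fzd6 and Wnt4 are clearly apart.

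Of the Frizzled receptors, Fzd2, Fzd4 and Fzd6 rose and Fzd1 fell slightly. Fzd6 (chromosome 15, 39006280 to 39038186), known from hair patterning and planar cell polarity, measured 19.3, 18.9 and 18.8 FPKM in the libraries labelled Smyd4 shRNA, against 11.2, 11.6 and 10.8 FPKM in the control libraries. This was a 1.69-fold difference of the means with no overlap (log2 change 0.74, 95% interval 0.66 to 0.82; limma, adjusted p = 1.46e-06). Fzd4 (chromosome 7, 89404355 to 89413134), the Norrin receptor of retinal vessels, measured 4.77, 4.72 and 4.57 FPKM in the labelled libraries, against 2.59, 2.84 and 2.63 FPKM in the control libraries. The means were 1.74-fold apart, again with no overlap (log2 change 0.70, SE 0.05; limma, adjusted p = 1.76e-05). Fzd2 (chromosome 11, 102604396 to 102608058), a receptor with a known part in palate formation, measured 30.2, 28.4 and 26.5 FPKM in the labelled libraries, against 18.6, 18.5 and 18.2 FPKM in the control libraries. The labelled libraries were all higher, 1.54-fold by the ratio of their means (log2 change 0.60, SE 0.05; limma, adjusted p = 2.24e-05).

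Fzd1 was the leading receptor mRNA of the control libraries. It measured 27.7, 28.9 and 27.1 FPKM in the libraries labelled Smyd4 shRNA, against 30.4, 30.8 and 30.0 FPKM in the control libraries. The fall of 0.12 on the log2 scale was small but without overlap (SE 0.03; limma, adjusted p = 0.0133). Fzd3, Fzd5 and Fzd7 did not pass. Fzd7 averaged 18.1 ± 0.324 FPKM in the labelled libraries and 19.0 ± 0.0943 FPKM in the control libraries, without overlap of the groups (limma, adjusted p = 0.0893). Fzd5 averaged 4.72 ± 0.0861 FPKM in the labelled libraries and 4.59 ± 0.209 FPKM in the control libraries, and the Fzd5 groups overlapped. Fzd3 averaged 1.29 ± 0.0229 FPKM in the labelled libraries and 1.31 ± 0.0585 FPKM in the control libraries, also with overlap.

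The summed Frizzled mRNA was higher in the labelled libraries, and its order changed. The 10 Frizzled genes summed to 101.2 to 106 FPKM in the libraries labelled Smyd4 shRNA and 87.6 to 90.3 FPKM in the control libraries. Fzd1 made up 26.7% in the labelled libraries and 34.1% in the control libraries, Fzd2 27.1% in the labelled and 20.7% in the control libraries, and Fzd6 18.2% in the labelled and 12.6% in the control libraries. In the labelled libraries Fzd2 and Fzd1 overlapped at the top, whereas in the control libraries Fzd1 stood above both Fzd7 and Fzd2 with no overlap. These sums and orders are descriptions of levels per gene length and were not tested.

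**Figure D3:**
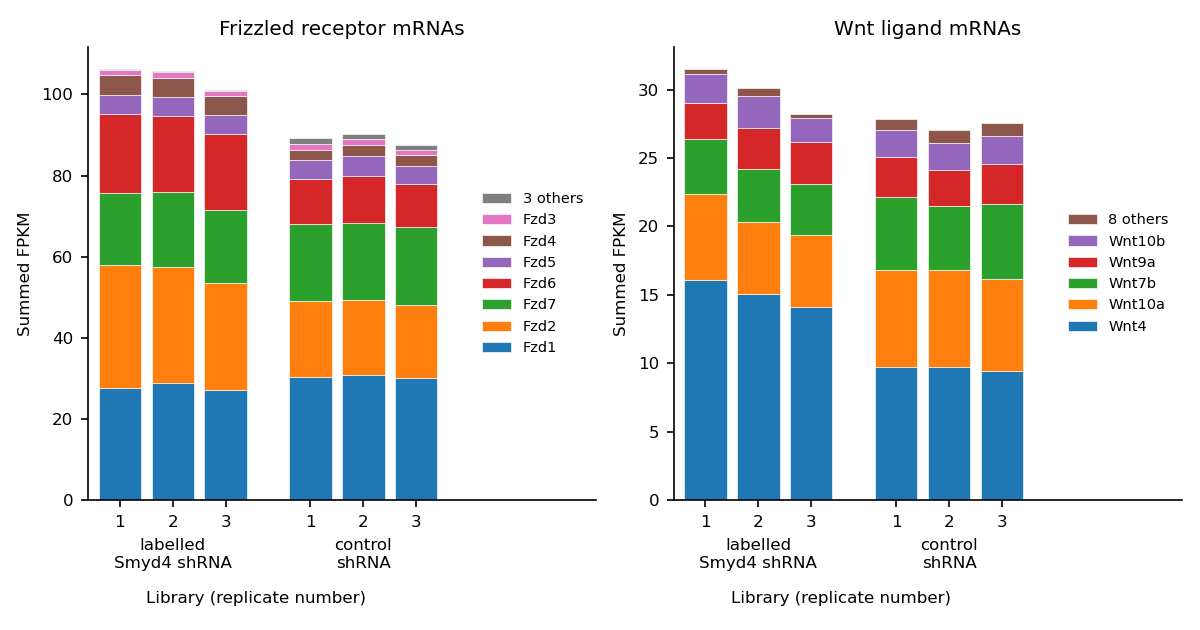
Summed FPKM of the 10 Frizzled receptor mRNAs (left) and the 13 Wnt ligand mRNAs (right) in each library, split by gene (stacked colours), with the 3 libraries labelled Smyd4 shRNA to the left of the 3 control libraries. The Frizzled sum is 101.2 FPKM or more in the labelled libraries and 90.3 FPKM or less in the control libraries, and the Wnt4 segment is the larger in the labelled libraries.

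The co-receptors moved apart. Lrp6, which is phosphorylated when a Wnt binds and recruits Axin, averaged 6.46 ± 0.245 FPKM in the libraries labelled Smyd4 shRNA and 7.82 ± 0.324 FPKM in the control libraries and fell (log2 change -0.26; limma, adjusted p = 0.0021). Lrp5, its close relative known for bone mass, averaged 11.7 ± 0.483 FPKM in the labelled libraries and 10.4 ± 0.322 FPKM in the control libraries and rose (log2 change 0.15; limma, adjusted p = 0.0152). The Lrp5 call was lost without Smyd4 shRNA replicate 1 (limma, adjusted p = 0.0505) and without control replicate 2 (limma, adjusted p = 0.0552), within a range of 0.000592 to 0.0552 over all alternatives.

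The low receptors Fzd8 and Fzd9 were lower in the labelled libraries. Fzd8 had 33, 32 and 18 reads in the libraries labelled Smyd4 shRNA, against 105, 91 and 87 reads in the control libraries (edgeR, adjusted p = 6.58e-09). Over the group the control level was 3.37-fold the labelled level, with a counting interval of 2.63 to 4.36 that covers counting error only. Fzd9 had 2, 4 and 4 reads in the labelled libraries, against 16, 11 and 15 in the control libraries (edgeR, adjusted p = 0.000777). Both fell with no overlap of the groups. Fzd9 could enter the test through the control libraries, in which it was high, so its p gives no support for a direction. Fzd10 and the receptor tyrosine kinases Ror1 and Ror2, which bind Wnt5a, had 0 to 4 reads per library.

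Of the secreted antagonists, Sfrp4 and Dkk2 were tested and both fell. Sfrp4 (chromosome 13, 19623175 to 19632821), a secreted frizzled-related protein that binds Wnt proteins, measured 1.09, 1.10 and 1.29 FPKM in the libraries labelled Smyd4 shRNA, against 2.36, 2.79 and 2.90 FPKM in the control libraries. All labelled libraries lay below all control libraries, whose mean was 2.31-fold that of the labelled ones (log2 change -0.93, SE 0.09; limma, adjusted p = 9.83e-05). Dkk2, a Dickkopf protein that binds Lrp6, measured 10.8, 10.7 and 11.1 FPKM in the labelled libraries, against 13.1, 12.7 and 12.1 FPKM in the control libraries. The groups did not overlap, and Dkk2 fell by 0.21 on the log2 scale (limma, adjusted p = 0.00273).

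Among the antagonists and R-spondins under the filter, Dkk3, Rspo2, Rspo3 and Sfrp2 were lower and Sfrp1 was higher in the labelled libraries, on few reads. Dkk3, the most divergent of the Dickkopf family, had 3, 2 and 8 reads in the libraries labelled Smyd4 shRNA, against 169, 126 and 154 reads in the control libraries. Its level in the control libraries was 34.1-fold that in the labelled libraries, with a counting interval of 19.8 to 64.6 (edgeR, adjusted p = 1.44e-15). Every labelled library lay far below every control library. Rspo2, an R-spondin that enhances Wnt signalling by sparing Frizzled from degradation, had 0, 0 and 1 reads in the labelled libraries, against 19, 15 and 18 in the control libraries (ratio of control over labelled 51.4, counting interval 8.82 to 2068; edgeR, adjusted p = 4.17e-07). Rspo3, of the same family, had 0, 2 and 0 reads in the labelled libraries, against 28, 17 and 18 in the control libraries (ratio 31.1, counting interval 8.27 to 263; edgeR, adjusted p = 4.59e-07). Both R-spondins were at or near 0 reads in the labelled libraries, where a count of 0 allows up to 3 reads. Dkk3, Rspo2 and Rspo3 could enter the test through the control libraries, in which they were high. Their p-values therefore give no support for a direction, and their intervals cover counting error only. Rspo1 had 0 to 6 reads per library.

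The secreted frizzled-related proteins Sfrp1 and Sfrp2 went opposite ways. Sfrp1 had 46, 50 and 33 reads in the libraries labelled Smyd4 shRNA, against 4, 6 and 12 in the control libraries. It rose 5.93-fold with no overlap, with a counting interval of 3.76 to 9.80 (edgeR, adjusted p = 1.13e-07). Sfrp2 had 1, 3 and 2 reads in the labelled libraries, against 20, 17 and 18 in the control libraries. It fell, with a control level 9.06-fold that of the labelled libraries and a counting interval of 3.91 to 25.7 (edgeR, adjusted p = 5.09e-06). Wif1, another secreted Wnt inhibitor, and Dkkl1 had 0 to 5 reads per library. Sfrp1 could enter the test through the labelled libraries and Sfrp2 through the control libraries, so their p-values give no support for a direction. The intervals cover counting error only.

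**Figure D4:**
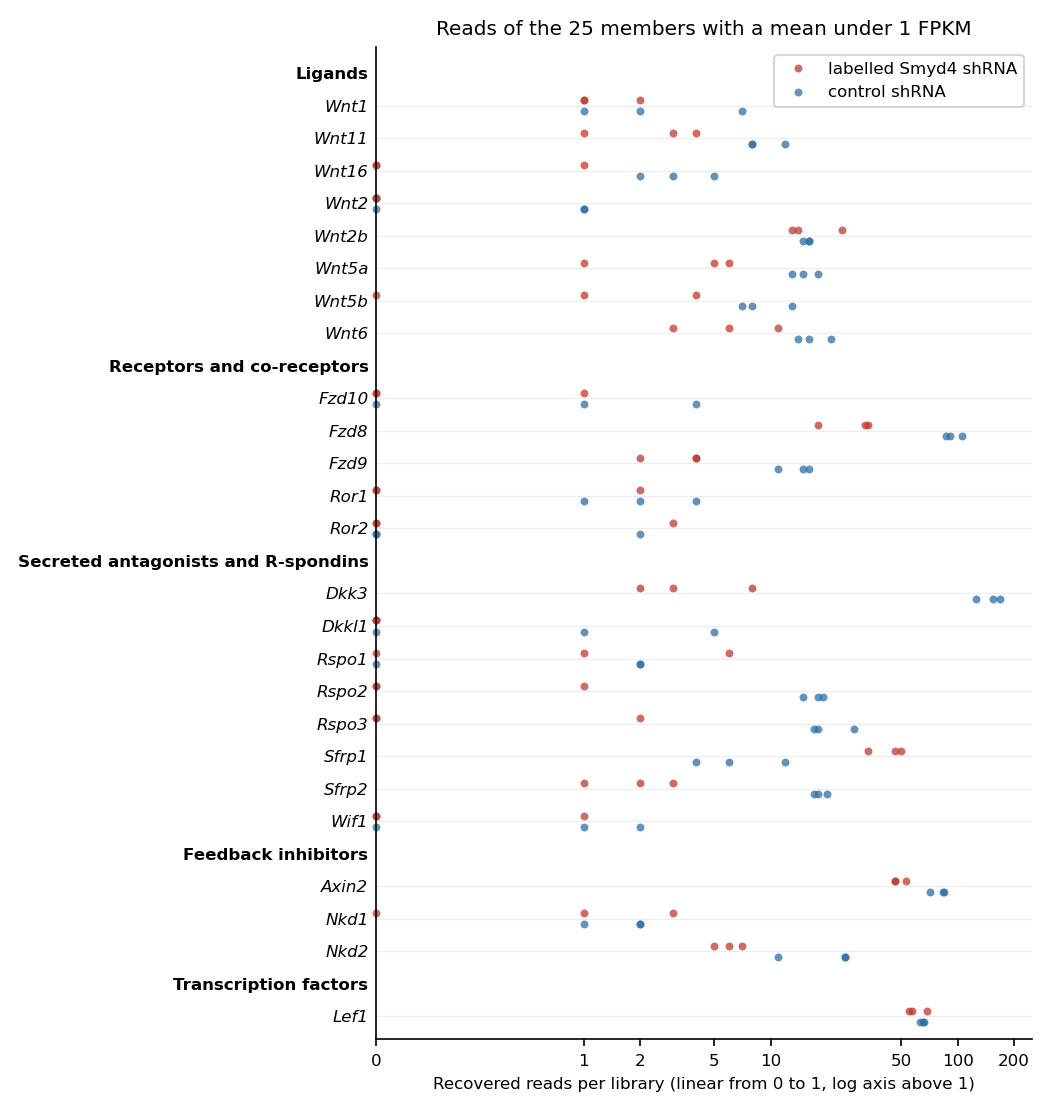
Recovered reads per library for the 25 members with a mean under 1 FPKM, on an axis that is linear from 0 to 1 and logarithmic above, with libraries labelled Smyd4 shRNA in red above control libraries in blue. Dkk3 has 2 to 8 reads in the labelled libraries and 126 to 169 in the control libraries, while Sfrp1 lies the other way at 33 to 50 and 4 to 12 reads.

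Among the feedback inhibitors, Axin2 was lower and Znrf3 did not pass. Axin2 (chromosome 11), a widely used readout of beta-catenin signalling, measured 0.320, 0.331 and 0.465 FPKM in the libraries labelled Smyd4 shRNA, against 0.539, 0.651 and 0.602 FPKM in the control libraries. These values rest on 46, 46 and 53 reads in the labelled libraries and 71, 85 and 84 reads in the control libraries. The groups did not overlap, and Axin2 fell by 0.71 on the log2 scale (edgeR, adjusted p = 0.00129). Znrf3, the ubiquitin ligase that removes Frizzled from the surface, measured 3.63, 3.81 and 3.43 FPKM in the labelled libraries, against 3.36, 3.30 and 3.25 FPKM in the control libraries. Its labelled libraries were all above the control ones, but the log2 change of 0.12 did not pass (interval -0.01 to 0.24; limma, adjusted p = 0.108). Nkd2, which binds Dishevelled, had 7, 6 and 5 reads in the labelled libraries, against 11, 25 and 25 in the control libraries (edgeR, adjusted p = 0.000714). Nkd2 fell with no overlap, but it could enter the test through the control libraries, so its p gives no support for a direction. Its relative Nkd1 had 0 to 3 reads per library.

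Over the 25 members under the filter, edgeR could test 13 and called 1 higher and 10 lower, where it called 9.66% higher and 25.7% lower of 2610 genes under the filter. These too could enter the test through the group in which they were high. The other 12 had 0 to 13 reads in every library.

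Among the intracellular transducers, Dvl2 rose, Dvl1 and Dvl3 fell, and Ctnnb1 and Axin1 did not pass. Ctnnb1, which encodes beta-catenin, measured 127, 125 and 128 FPKM in the libraries labelled Smyd4 shRNA, against 120.4, 121 and 123 FPKM in the control libraries. The groups did not overlap, but the log2 change of 0.06 stayed just outside the threshold (interval 0.01 to 0.11; limma, adjusted p = 0.0525). The authors' deposited table lists Ctnnb1 with a log2 change of 0.06 and an adjusted p of 0.029. Axin1, the scaffold of the destruction complex, averaged 19.2 ± 0.340 FPKM in the labelled libraries and 20.0 ± 1.23 FPKM in the control libraries and did not pass. The protein level of beta-catenin, through which the pathway acts, was not measured here.

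The Dishevelled genes, whose products relay the signal from Frizzled, moved in different directions. Dvl1 measured 23.2, 23.2 and 22.5 FPKM in the libraries labelled Smyd4 shRNA, against 25.2, 24.2 and 24.4 FPKM in the control libraries (log2 change -0.10; limma, adjusted p = 0.0236). Dvl2 averaged 14.9 ± 1.07 FPKM in the labelled libraries and 12.2 ± 0.570 FPKM in the control libraries and rose (log2 change 0.28; limma, adjusted p = 0.00442). Dvl3 averaged 8.73 ± 0.304 FPKM in the labelled libraries and 9.69 ± 0.520 FPKM in the control libraries (log2 change -0.14; limma, adjusted p = 0.0378). Dvl1 and Dvl3 fell and Dvl2 rose, each without overlap, yet not all of these calls were stable. The Dvl1 call was lost without Smyd4 shRNA replicate 3 (limma, adjusted p = 0.0681) and without control replicate 1 (limma, adjusted p = 0.0881), within 0.00856 to 0.0881 over all alternatives. The Dvl3 call was lost without Smyd4 shRNA replicates 1 or 2 (limma, adjusted p = 0.108 and 0.0982), without control replicates 1 or 3 (0.124 and 0.0938), without the filter (0.0777) and under quantile normalization (0.0506), within 0.00607 to 0.124. Dvl2 overlaps Acadvl on the opposite strand, which stood at 23.0 FPKM in the labelled libraries and 22.0 FPKM in the control libraries, and the use of strand in counting was not given in the sources used here.

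All 3 tested transcription factors were higher in the labelled libraries. Tcf7, which encodes TCF1, measured 12.7, 13.0 and 12.8 FPKM in the libraries labelled Smyd4 shRNA, against 10.2, 9.07 and 9.81 FPKM in the control libraries. It rose by a log2 change of 0.39 with no overlap (SE 0.05; limma, adjusted p = 0.000246). Tcf7l1, which encodes TCF3 and acts mainly as a repressor, measured 5.13, 4.81 and 5.34 FPKM in the labelled libraries, against 4.25, 4.27 and 3.99 FPKM in the control libraries. It rose as well, by 0.26, again with no overlap (SE 0.05; limma, adjusted p = 0.0042). Tcf7l2, which encodes TCF4, averaged 2.80 ± 0.193 FPKM in the labelled libraries and 1.89 ± 0.148 FPKM in the control libraries and rose (log2 change 0.46; limma, adjusted p = 0.00146). Lef1 stayed under the filter with 57, 55 and 69 reads in the labelled libraries and 65, 66 and 63 in the control libraries. Its groups overlapped, and the ratio of labelled over control was 0.944, with a counting interval of 0.767 to 1.16 (edgeR, adjusted p = 0.737).

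Other genes of the pathway were listed by function, also with earlier results of these data known. Among 68 tested, 16 were higher (23.5%), 21 lower (30.9%) and 31 not called, with a median log2 change of -0.06. That is 54.4% called, beside 48.3% of all tested genes. Among cell-surface and secreted regulators, 4 of 9 tested were higher and 3 lower (77.8% called). Apcdd1, a membrane inhibitor of Wnt, averaged 65.0 FPKM in the libraries labelled Smyd4 shRNA and 40.8 FPKM in the control libraries. The glypican Gpc6 had a log2 change of 0.34 and the R-spondin receptor Lgr4 one of 0.21. Ptk7, a co-receptor of the planar polarity branch, averaged 2.37 FPKM in the labelled libraries and 3.99 FPKM in the control libraries, and Tspan12, a partner of Fzd4, averaged 9.13 FPKM in the labelled libraries and 11.3 FPKM in the control libraries. Tmem131l had a log2 change of -0.22. Notum, an extracellular Wnt deacylase under the filter, averaged 0.126 FPKM in the labelled libraries and 1.05 FPKM in the control libraries (edgeR, adjusted p = 2.63e-10). It could enter that test through the control libraries, in which it was high, so its p gives no support for a direction of the list.

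Of 18 tested genes of the destruction complex and its regulators, 1 was higher, 4 were lower and 13 were not called, which is 27.8% called, beside 48.3% of all tested genes. Csnk1e, a kinase that acts on Dishevelled, averaged 7.28 FPKM in the libraries labelled Smyd4 shRNA and 13.3 FPKM in the control libraries (log2 change -0.82; limma, adjusted p = 2.5e-06). Frat2, which binds the kinase Gsk3, averaged 1.49 FPKM in the labelled libraries and 2.48 FPKM in the control libraries, and the scaffold Apc averaged 5.41 FPKM in the labelled libraries and 6.93 FPKM in the control libraries. The related Apc2 was the one that rose, with a log2 change of 0.24. Of 17 nuclear partners of beta-catenin, 4 were higher and 4 lower (47.1% called). Ctnnbip1, which blocks the binding of TCF to beta-catenin, had a log2 change of 0.28, Bcl9l one of 0.18 and Chd8 one of 0.11, while Bcl9 had -0.23, the acetyltransferase Ep300 -0.21 and Hbp1 -0.19.

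Of 8 tested genes of the planar cell polarity branch, 37.5% were called: the formin Daam2 rose (log2 change 0.42), and the related Daam1 (-0.48) and Prickle1 (-0.49) fell. Of 17 tested genes reported elsewhere as targets of beta-catenin and TCF, 7 were higher and 8 lower, 88.2% in all, beside 48.3% of all tested genes. The transcription factor Sp8 averaged 8.92 FPKM in the libraries labelled Smyd4 shRNA and 4.89 FPKM in the control libraries, and the matricellular gene Ccn4 had a log2 change of 0.33. The surface receptor Cd44 averaged 48.5 FPKM in the labelled libraries and 75.6 FPKM in the control libraries, and the transcription factor Sox9 averaged 13.3 FPKM in the labelled libraries and 20.7 FPKM in the control libraries. The receptor kinase Met had a log2 change of -0.30.

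The authors' deposited table of called genes lists 30 of the 52 members, 12 higher and 18 lower, while it lists 25.2% of all genes in the expression table. All 18 members called here are among those 30, and none of the 30 had the opposite sign of the FPKM means. Of the members that neither test used here could assess, the authors' deposited table lists Wnt5b with a log2 change of -0.47 and an adjusted p of 0.0352. By its few reads, the control level was 5.53-fold the labelled level, with a counting interval of 2.11 to 18.4. Deposited changes of members with few reads were smaller in size than those from edgeR, as for Rspo2 at -1.01 against -5.24. Wnt5b also overlaps Fbxl14 on the opposite strand, which averaged 27.7 FPKM in the labelled libraries and 24.5 FPKM in the control libraries.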

How the data were processed

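RNA was measured in 6 HL-1 libraries, 3 labelled Smyd4 shRNA and 3 control, grouped by the labels. FPKM values and a comparison table were deposited by the authors. Per the submitters' processing notes, tools included TopHat2 2.0.9 and Bowtie2 2.0.6 on GRCm38. Read counter, annotation and use of strand were not given in the sources used here. Besides FPKM, the comparison table's normalized signal per library, log2 fold changes and p-values are also the authors' and cover called genes only. FPKM times length over signal is 1 constant, 41.6, so FPKM carries the size factors of the deposited signal. Whole reads were recovered for 100% of FPKM values within 0.01. For 4 members (Wnt10b, Fzd3, Nkd1 and Dkkl1) no exact length was found, and their reads are lower bounds.

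From the deposited FPKM, log2(FPKM + 0.5) was compared with limma 3.58.1 (R 4.3.3, empirical Bayes with trend) over the 11325 genes that averaged at least 1 FPKM, with Benjamini-Hochberg adjustment at 0.05. This scale understates changes of low genes. Genes under that filter were tested with edgeR 4.0.16 (quasi-likelihood, TMM, filterByExpr) on recovered reads, in a fit over 13775 genes. Ratios of reads have exact 95% binomial intervals, which cover counting error and not variation between libraries. Within a group, pairs of libraries had a chi-square per degree of freedom of 1.68 to 2.88 over genes with at least 50 reads. Counting error alone would give about 1. Fits were also run on simulated data, whose results are not given here, so that run is no support for the calls.

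Members and lists were chosen with earlier results of these data known. Named genes were called members with an absolute log2 change of at least 0.5, the 2 most abundant per role, Ctnnb1, Axin2 and Lef1, low members called by edgeR or with at least 10 reads in every library of a group, and up to 3 per direction of each list. Wnt5b was named for its motif and its entry in the deposited table, chosen after values were seen. The reads of Wnt11 and Wnt16 and the values of Notum were also given outside this rule. Coordinates are from the deposited table or GENCODE M21. Replicate numbers did not pair the libraries (correlations -0.03, 0.02 and 0.01). Alternatives covered pseudocount, filter, scaling, replicate block, edgeR and each library left out. The atrial markers Nppa and Sln had no entry in the expression table used here, so no level is given for them. Of the other marker lists, 5 endothelial genes summed to 0.0554 to 0.655 FPKM in the labelled libraries and 0.125 to 0.168 FPKM in the control libraries, and 5 macrophage genes to 1.80 to 1.94 FPKM in the labelled libraries and 1.86 to 2.18 FPKM in the control libraries.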

Additional observations from a re-analysis of the deposited data

How the results depend on the processing

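Under 13 alternatives, the counts of called members, of all genes and of pathway genes stayed within 1.5 times, except the count of lower members. The Smyd4 change passed the test under none of them and stayed negative, but moved by over 1.5 times without control replicate 3, where it was -0.040, against -0.072 over all libraries. The count of lower members was 8, became 19 without the filter, when all 52 members were tested, and 18 with edgeR on recovered reads, when 40 were. With each library left out, 9 to 10 members were higher and 6 to 8 lower. With the replicate numbers as a replicate block, 10 members were higher and 8 lower, and of all genes 2667 were higher and 2474 lower, so the block changed neither these counts of members nor any single member's call. Of the single members, 334 values kept their direction and side of the threshold. In 5 cases a member that was never called changed sign: Fzd3 had a log2 change of 0.079 under quantile normalization and -0.034 to 0.012 with each library left out, Wnt10b -0.013 to 0.16 with each library left out, and Wnt9a -0.016 to 0.084. The other changes were 10 lost calls, all of Dvl1, Dvl3 or Lrp5, and 2 gained under quantile normalization, Ctnnb1 (limma, adjusted p = 0.0258) and Znrf3 (0.0326). The cause was not tested. Members under the filter rest on 0 to 169 reads per library, where counting error limits the size of a change.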

Other observations

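A pair of members lay next to each other on chromosome 1, Wnt6 and Wnt10a, on the same strand with a gap of 6193 bases. Wnt6 was under the filter, with 6, 11 and 3 reads in the labelled libraries and 14, 16 and 21 in the control libraries. Over all tested genes, the groups did not overlap in 57.8%. Both Wnt6 and Wnt10a were lower in the libraries labelled Smyd4 shRNA than in the control libraries without overlap of the groups. Wnt10b and Wnt1 on chromosome 15, on opposite strands with a gap of 11706 bases, did not show this, since Wnt10b overlapped between the groups and Wnt1 had 1 to 2 reads in the labelled libraries and 1 to 7 in the control libraries. Whether the neighbours share regulation was not tested.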
